A study of Mus musculus with 2 samples.

Results

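The mouse tripartite motif (TRIM) genes were taken as all features whose symbol is Trim, a number and at most 1 letter. The tables listed 67 such genes among 35522 features. Of these, 33 had an RPKM of at least 0.25 in both libraries and were kept, out of 9698 genes kept in all. RPKM counts the reads on a gene per kilobase of its exons, scaled to the mapped reads of the library. Neutrophils had been sorted from mouse bone marrow as cells with CD11b, high Ly6G and low or no Ly6C, and both cultures held 10 ng/ml GM-CSF. The PBS culture received PBS. The ELV culture received 20 μg/ml tumor exosomes, small vesicles shed by colon carcinoma cells grown as stem-like spheres. Both were kept for 3 days. Each treatment had 1 library, so no value has a replicate spread and no test between treatments was possible. The labels name no strain. The study's methods give Balb/C mice of 5 to 8 weeks as the source of its immune cells. Whether animals were pooled is not given in the sources used here.

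TRIM proteins carry a RING finger, 1 or more B-boxes and a coiled coil, in that order. The RING finger lets most of them act as E3 ubiquitin ligases, which pass ubiquitin from an E2 enzyme to a target protein. The part behind the coiled coil differs between classes and chooses the target. Many TRIM proteins act in innate immunity, where they tune the sensing of viral RNA and DNA or bind viral proteins, and several of their genes are induced by interferon.

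The genes whose levels differed most include close paralogs on chromosome 7, so the promoter windows of these genes are shown first. The windows come from RefSeq (GRCm38.p6) and span 250 bases before to 50 bases after the annotated start. They are letters of the reference genome, and the promoters of the mice used may differ from them. An entry was found for 25 of the 33 genes kept. Capitals mark each match to GAAANNGAAA, the core of the interferon-stimulated response element (ISRE), on either strand. All 6 windows lie on the minus strand: Trim30a at chr7:104465144-104465443, Trim30d at chr7:104507800-104508099, Trim30b at chr7:104358597-104358896, Trim12c at chr7:104353300-104353599, Trim12a at chr7:104315446-104315745 and Trim21 at chr7:102565433-102565732.
Trim30a: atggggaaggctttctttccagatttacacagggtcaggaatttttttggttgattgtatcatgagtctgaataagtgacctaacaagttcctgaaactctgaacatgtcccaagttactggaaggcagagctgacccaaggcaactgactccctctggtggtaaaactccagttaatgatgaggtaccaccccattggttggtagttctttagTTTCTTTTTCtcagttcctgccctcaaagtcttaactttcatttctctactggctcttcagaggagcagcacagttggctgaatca
Trim30d: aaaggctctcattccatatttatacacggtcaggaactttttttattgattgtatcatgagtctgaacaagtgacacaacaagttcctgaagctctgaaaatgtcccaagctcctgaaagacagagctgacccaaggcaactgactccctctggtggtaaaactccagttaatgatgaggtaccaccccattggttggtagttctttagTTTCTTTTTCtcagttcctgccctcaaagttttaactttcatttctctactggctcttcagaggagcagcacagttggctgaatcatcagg
Trim30b: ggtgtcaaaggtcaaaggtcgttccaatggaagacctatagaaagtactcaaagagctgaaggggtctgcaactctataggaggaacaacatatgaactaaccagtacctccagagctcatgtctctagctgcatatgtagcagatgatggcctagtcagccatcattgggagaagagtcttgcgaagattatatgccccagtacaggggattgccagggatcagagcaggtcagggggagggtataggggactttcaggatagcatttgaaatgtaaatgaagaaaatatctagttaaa
Trim12c: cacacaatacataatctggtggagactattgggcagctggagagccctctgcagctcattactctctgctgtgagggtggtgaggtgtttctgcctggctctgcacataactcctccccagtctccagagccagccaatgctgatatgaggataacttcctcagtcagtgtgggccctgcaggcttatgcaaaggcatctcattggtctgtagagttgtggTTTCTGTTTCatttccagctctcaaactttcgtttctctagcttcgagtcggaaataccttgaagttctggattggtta
Trim12a: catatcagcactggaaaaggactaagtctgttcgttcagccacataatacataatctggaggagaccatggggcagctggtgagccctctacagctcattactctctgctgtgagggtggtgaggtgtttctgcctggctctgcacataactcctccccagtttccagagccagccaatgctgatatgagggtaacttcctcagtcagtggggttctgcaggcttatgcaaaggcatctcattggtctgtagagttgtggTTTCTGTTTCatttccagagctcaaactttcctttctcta
Trim21: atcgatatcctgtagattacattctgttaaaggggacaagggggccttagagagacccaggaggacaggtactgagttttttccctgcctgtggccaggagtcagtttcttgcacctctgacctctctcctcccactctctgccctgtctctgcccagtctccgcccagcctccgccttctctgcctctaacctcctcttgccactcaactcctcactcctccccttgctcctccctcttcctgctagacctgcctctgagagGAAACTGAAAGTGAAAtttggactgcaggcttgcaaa

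The letters GAAANNGAAA were found in 1131 of 32851 promoter windows (3.44%) of the mouse table. They were found in 8 of the 31 windows of the TRIM genes kept (25.8%). These 8 windows belong to 7 genes, Trim5, Trim12c, Trim21, Trim26, Trim30a, Trim30d and Trim34a. They include near copies and so are not separate cases. A second window of Trim30a shared 91.5% of aligned bases with its first, and Trim12c and Trim5 shared 94.6%. Trim30a and Trim30d are compared below. The match began 36 bases before the start of Trim30a, 41 before that of Trim30d and 29 before that of Trim12c. Trim21 held a pair of overlapping matches that began 13 and 19 bases after its start. A second motif, TTCNNNGAA, the core of the gamma-activated site, stood in 8.30% of all windows and in 1 window of the TRIM genes kept, that of Trim30c. Both motifs were searched on both strands. A match is a description of the letters and no sign that a factor was bound. The Trim30b window held no ISRE match, but RefSeq's start of Trim30b lies 11238 bases inside the gene as GENCODE M21 draws it, so the window does not cover the outermost start.

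Likeness of the windows varied between paralogs. The windows of Trim30a and Trim30d shared 277 of 295 aligned bases (93.9%) and both held the match. Those of Trim30a and Trim30c shared 180 of 199 (90.5%), but the Trim30c window held no ISRE match. Those of Trim12c and Trim12a shared 95.4%, and both held the match. Those of Trim5 and Trim12a shared all 241 aligned bases. Trim30a and Trim30b shared 64.8% of their aligned bases, and Trim34a and Trim34b 70.6%. The windows of Trim30a and Trim12c, taken from different groups of the cluster, shared 70.3%. Shares of this size therefore do not mark close paralogs. All of these shares leave out gaps. The RPKM values of these pairs are given with the cluster.

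Both libraries were deep. About 65.97 M mapped reads (M for mega) were estimated for PBS and 79.13 M for ELV, so 3 reads on a transcript of 2 kb correspond to an RPKM of 0.0227 and 0.0190. The labelled cell type was checked against its markers. Of 10 neutrophil markers, all kept, 9 were at least 2-fold lower in ELV. Their summed RPKM was 83190 in PBS and 30163 in ELV, and Ly6g, the gated surface protein, stood at 286.96 and 56.19. All 12 monocyte and macrophage markers listed were higher in ELV, with a sum of 193.26 in PBS and 631.86 in ELV, and none was at 0 in either library. All 4 B cell markers were lower in ELV (sums of 104.14 and 64.05). Of 4 T cell markers, Cd3d stood at 56.44 in PBS and 7.02 in ELV, and Cd3g at 1.19 and 0.11. Cd3e stood at 0.06 and 0.04, and Cd8a at 0.03 and 0.04. Of 4 carcinoma markers, Krt8 was listed at 0 in both libraries and Epcam at 0.07 and 0.00613. Krt18 stood at 0.38 in PBS and 0.08 in ELV, and Cdh1 at 0.14 and 0.11. These markers moved with treatment beside every TRIM value that follows, and their part in those values was not tested. In bulk RNA, fewer cells of a type and less RNA per cell cannot be told apart.

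The TRIM genes kept spanned RPKM 0.27 to 60.82 in PBS. Their median was 2.71 in PBS and 4.77 in ELV, against 5.28 and 8.5 over all genes kept. Trim25, the ligase that activates the RNA sensor RIG-I, was the highest in both libraries. It stood at 60.82 in PBS and 67.58 in ELV, a ratio of 1.11 (1.09 to 1.13). Ranges after a ratio are 95% Clopper-Pearson counting intervals of the estimated reads and leave out variation between cultures. In PBS the next places were held by Trim12c (54.68) and Trim30b (31.31). In ELV they were held by Trim30a (45.98) and Trim12c (30.01). Trim30a moved from 9th place in PBS to 2nd in ELV, and Trim30b from 3rd to 11th.

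**Figure D1:**
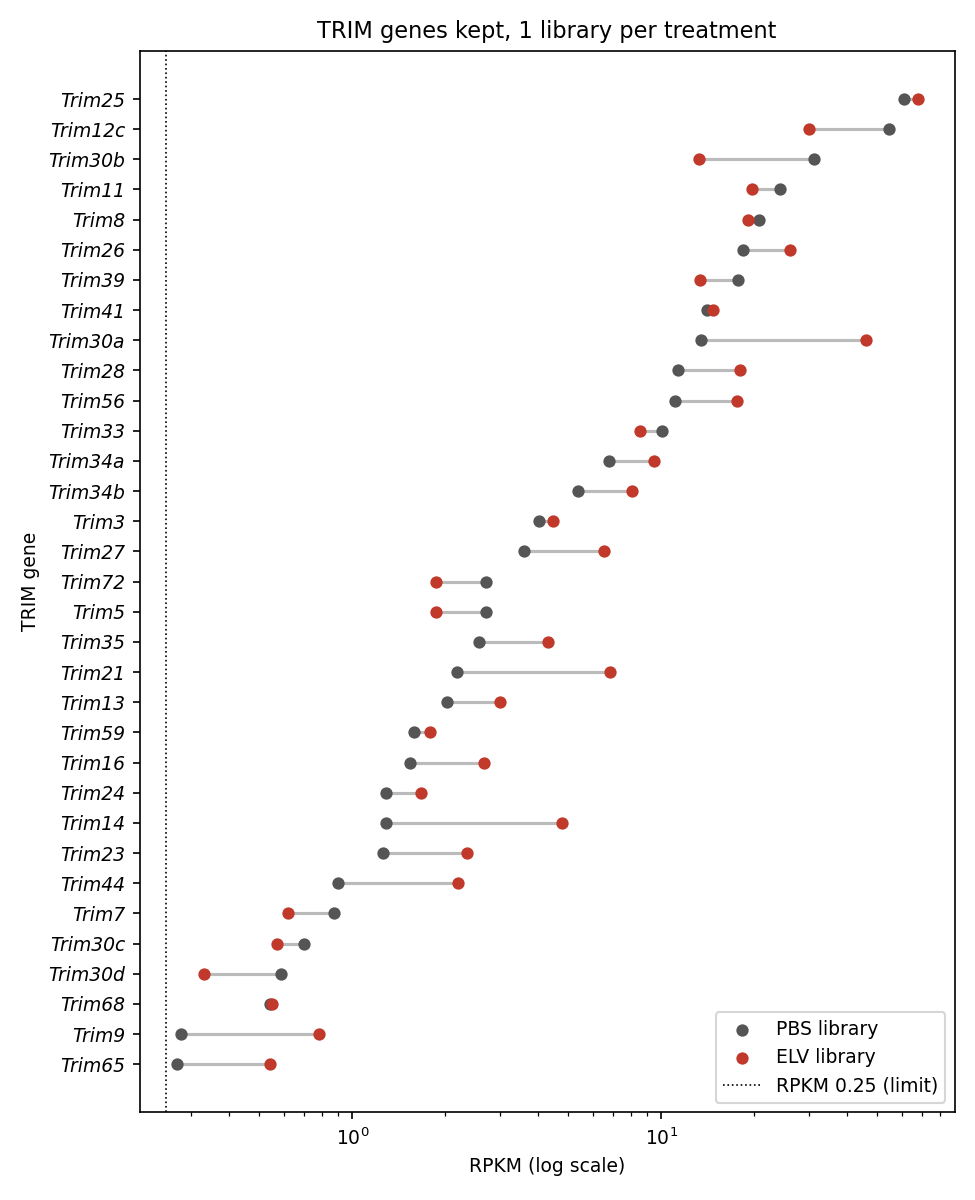
RPKM (log axis) of the 33 TRIM genes kept, ordered by their PBS level, with the PBS library in grey, the ELV library in red and the limit of 0.25 dotted. Trim25 is highest in both libraries at 60.82 and 67.58, and Trim30a (13.45 to 45.98) and Trim30b (31.31 to 13.26) cross each other's level.

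A gene was called up where its ELV RPKM was at least 2 times its PBS RPKM, and down where it was at most 0.5 times. Of the 33 TRIM genes kept, 6 were up (18.2%), namely Trim9, Trim14, Trim21, Trim30a, Trim44 and Trim65. Over all genes kept 31.5% were up. Trim30b alone was down (3.03%), against 5.62% of all genes kept. The median ratio of the TRIM genes was 1.29 (log2 0.37), and that of all genes kept was 1.44 (log2 0.53). Hence 22 of the TRIM genes had a ratio above 1, but only 14 lay above the median of all genes and 19 lay below it. The summed RPKM of the 33 genes was 330.95 in PBS and 358.91 in ELV, a ratio of 1.08. For 29 genes the counting interval of the ratio left out 1. It held 1 for Trim30c, Trim41, Trim59 and Trim68.

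With log2 ratios centred on the median of all genes kept, 3 TRIM genes were up (Trim14, Trim21 and Trim30a). Then 6 were down (Trim5, Trim7, Trim12c, Trim30b, Trim30d and Trim72). The same centring left 16.8% of all genes up and 13.2% down. The balance of higher and lower TRIM genes therefore turned with the scaling, since the centring moved every log2 ratio by 0.53. In all, 8 genes with ratios between 1 and 1.44 turned from higher to lower under it (Trim3, Trim24, Trim25, Trim26, Trim34a, Trim41, Trim59 and Trim68). Directions given below for genes within 2-fold are those of RPKM as deposited.

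**Figure D2:**
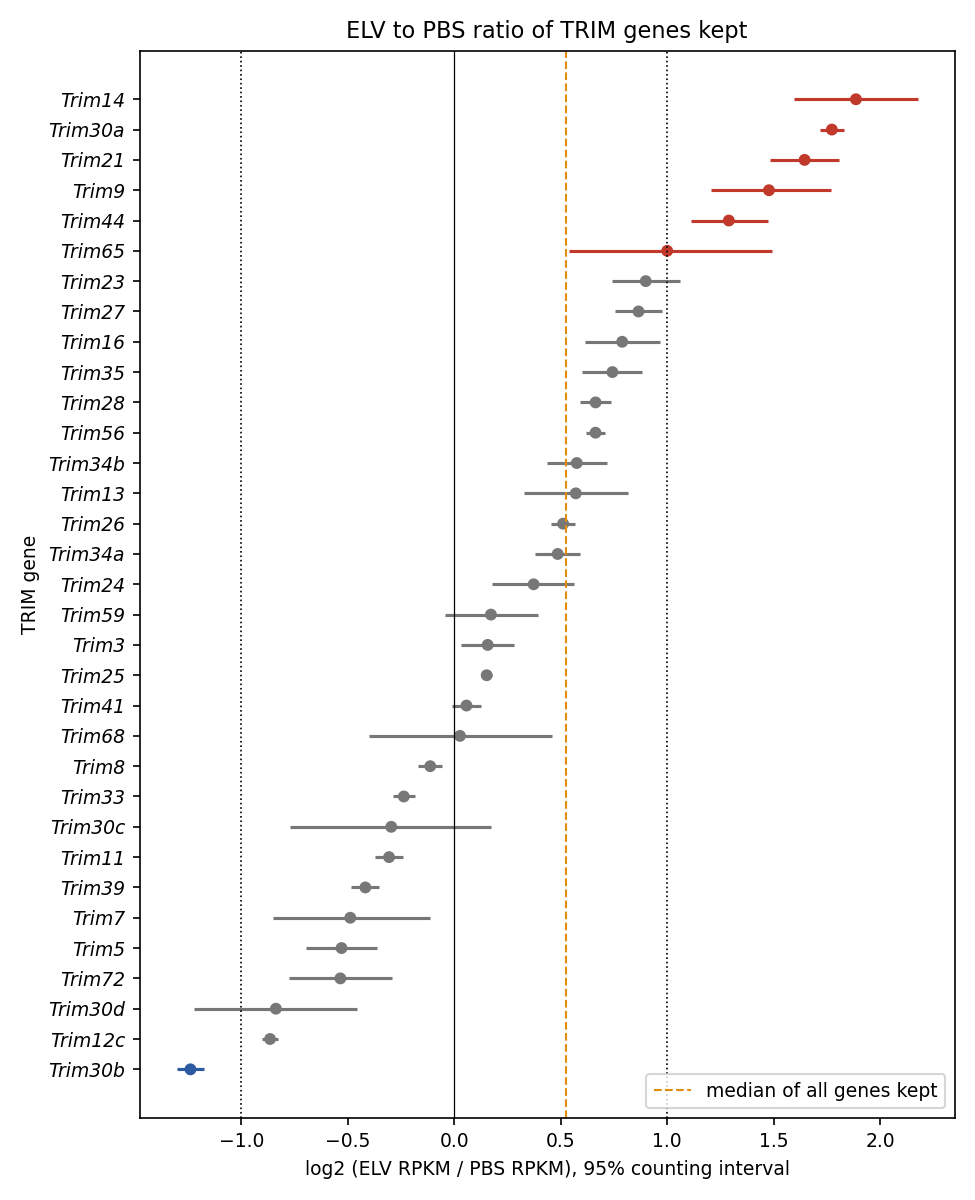
Log2 ratio of ELV to PBS RPKM for the 33 TRIM genes kept (points) with 95% counting intervals (bars), up genes in red, the down gene in blue, 2-fold limits dotted and the median of all genes kept dashed. The ratios run from -1.24 (Trim30b) to 1.89 (Trim14), and 19 of the 33 points lie below the dashed line at 0.53.

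Across all genes, the share called up depended on the level. It was 31.7% at a mean RPKM of 0.25 to 1, 50.2% from 1 to 5, 34.6% from 5 to 10, 18.4% from 10 to 50 and 12.5% from 50 on. The TRIM genes up in these ranges were 2 of 6, 3 of 12, 0 of 4, 1 of 10 and 0 of 1. In the range from 1 to 5, where 12 TRIM genes lie, the 3 that were up were Trim14, Trim21 and Trim44. The only TRIM gene up in the range from 10 to 50 was Trim30a. With each log2 ratio centred on the median of its level range, Trim30a and Trim9 were up and 5 genes were down (Trim5, Trim12c, Trim30b, Trim30d and Trim72), where 14.0% of all genes were up and 13.4% down. Trim14 and Trim21 then had ratios of 1.85 and 1.56. Under this centring 11 genes turned from higher to lower (Trim3, Trim13, Trim16, Trim23, Trim24, Trim34a, Trim34b, Trim35, Trim41, Trim59 and Trim68).

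**Figure D3:**
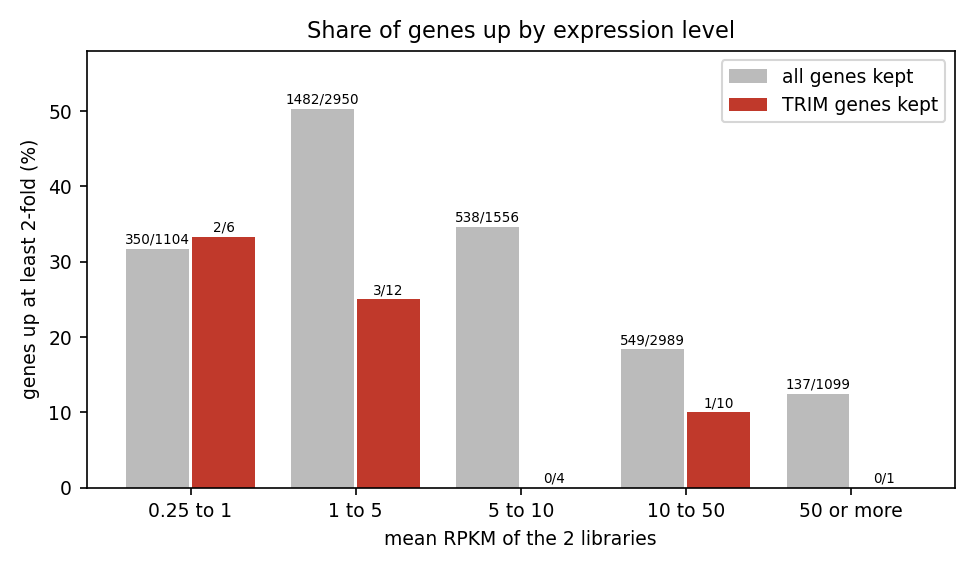
Share of genes up at least 2-fold (y axis, percent) in 5 ranges of mean RPKM (x axis), for all genes kept in grey and TRIM genes kept in red, with counts above the bars. From 1 to 5 the shares are 50.2% and 25% (3 of 12), and from 10 to 50 they are 18.4% and 10% (1 of 10).

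The largest class ends in a B30.2/SPRY domain, a fold that binds the target protein. Listed with it are 10 genes of a cluster on chromosome 7, from Trim6 (chr7:104218793-104235152) to Trim30d (chr7:104470014-104507849). Whether each of the 10 carries the domain was not checked. This cluster holds the rodent relatives of human TRIM5, a restriction factor that blocks retroviral capsids. The 8 cluster genes kept had a median log2 ratio of -0.41, with 3 ratios above 1 and 5 below. The other 25 TRIM genes kept had a median of 0.51, with 19 above 1 and 6 below. The cluster summed to 115.57 in PBS and 109.5 in ELV, a ratio of 0.947.

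Trim30a and Trim30b went opposite ways. Trim30a (chr7:104409025-104465193, minus strand), known to dampen Toll-like receptor signalling to NF-κB, stood at 13.45 in PBS and 45.98 in ELV. That is 3.42-fold higher (3.29 to 3.55). Trim30b (chr7:104355382-104369884, minus strand) stood at 31.31 in PBS and 13.26 in ELV, a ratio of 0.424 (0.405 to 0.443). Their log2 ratios lay 3.01 apart. Trim30b was 2.33 times as high as Trim30a in PBS, and Trim30a was 3.47 times as high as Trim30b in ELV. Trim30c stood at 0.70 and 0.57, a ratio of 0.814 (0.586 to 1.13). Trim30d stood at 0.59 in PBS and 0.33 in ELV, a ratio of 0.559 (0.429 to 0.728). The neighbour Trim30d thus lay on the lower side, at low values in both libraries. Whether the promoter windows bear on any of these values was not tested.

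Summed over the 4 Trim30 genes, RPKM was 46.05 in PBS and 60.14 in ELV, 1.31 times as high. The make-up of the sum changed more than the sum. Trim30a held 29.2% of it in PBS and 76.5% in ELV. Trim30b held 68.0% in PBS and 22.05% in ELV. Exact matches of 50 bases between these paralogs were few. Near matches were not counted, so how reads were split between the copies is not known. Of all windows of 50 bases in a Trim30a transcript, 6.53% also occur in another gene, Trim30d. For Trim30d, 8.29% do, with 6.99% in Trim30a. For Trim30b, 0.0367% do, and none in another TRIM gene.

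Trim12c (chr7:104338754-104353362, minus strand) stood at 54.68 in PBS and 30.01 in ELV, a ratio of 0.549 (0.534 to 0.564), just inside the 2-fold limit. Trim12a, whose promoter window was close to that of Trim12c, was listed at 0.00994 in PBS and at 0 in ELV, about 1 and 0 estimated reads. Trim5 stood at 2.70 and 1.87, a ratio of 0.693 (0.617 to 0.778). Trim12c and Trim5 shared 34.4% and 38.4% of their 50-base windows with other genes, so a part of their reads could be split between copies. Trim34a stood at 6.75 and 9.45, a ratio of 1.40 (1.30 to 1.51). Trim34b stood at 5.39 and 8.03, a ratio of 1.49 (1.35 to 1.64). The last pair shared 61.9% and 59.0% of their windows with other genes, mostly with each other, and their separate values are uncertain. Their sum was 12.14 in PBS and 17.48 in ELV. Trim6 stood at 0.06 and 0.04 and was not kept.

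**Figure D4:**
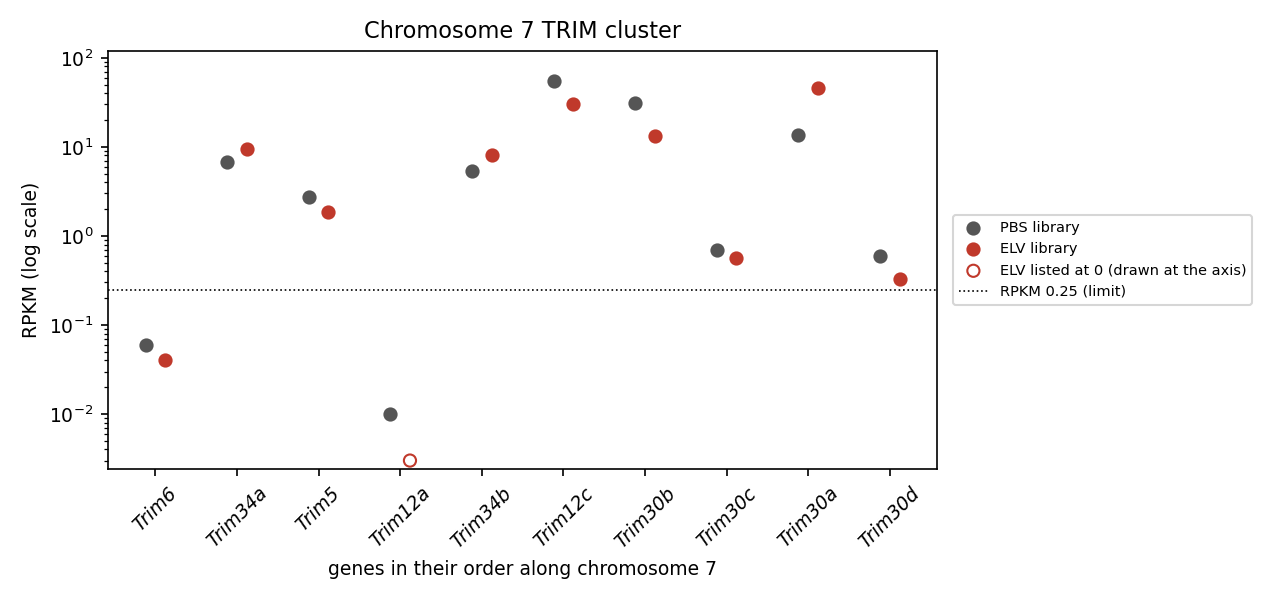
RPKM (log axis) of the 10 TRIM genes of the chromosome 7 cluster in genome order, PBS in grey and ELV in red, with the limit of 0.25 dotted and a 0 drawn as an open circle at the axis. As deposited, ELV lies above PBS only for Trim34a, Trim34b and Trim30a, and Trim12a lies at the foot of the plot beside Trim12c at 54.68 and 30.01.

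Genes without a RING finger and those of the COS class are listed apart below, whatever domain they end in. Outside the cluster 12 further genes listed as SPRY were kept. Of these, 2 were up (16.7%) and 0 down, beside 31.5% and 5.62% of all genes kept, with a median log2 ratio of 0.10. Trim21 (chr7:102557921-102565486, minus strand), the cytosolic antibody receptor that marks antibody-coated virus, stood at 2.18 in PBS and 6.82 in ELV. It was 3.13-fold higher (2.80 to 3.50). Trim65 (chr11:116121846-116131128, minus strand), a ligase for the RNA sensor MDA5, stood at 0.27 and 0.54. Its ratio of 2 lay on the limit, and the interval ran from 1.45 to 2.81. Rounding of the deposited values alone allows 1.95 to 2.06. Its exons overlap those of Trim47 by 225 bases on the same strand, and Trim47 stood at 0.11 and 0.09.

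The other genes of this SPRY list stayed within 2-fold. Trim27 came nearest the limit, at 3.59 in PBS and 6.54 in ELV, a ratio of 1.82 (1.69 to 1.97). Trim35 stood at 2.57 and 4.30, and Trim26 at 18.38 and 26.19. These 3 genes were higher in ELV by 1.42 to 1.82 times. Trim25 has been given above, Trim41 stood at 14.11 and 14.68, and Trim68 at 0.54 and 0.55. The values of these 3 genes were close in both libraries. Trim11 stood at 24.23 and 19.59, and Trim39 at 17.77 and 13.30. Trim7, a partner of glycogenin, stood at 0.87 and 0.62. Trim72, known for membrane repair in muscle, stood at 2.71 and 1.87, a ratio of 0.690. Of the exon bases of Trim72, 27.6% overlap Gm15533 on the opposite strand, and whether counting used strand is not stated. Trim7, Trim11, Trim39 and Trim72 were thus lower in ELV. Gene neighbours differed widely in level, since Trim17, which lies directly before Trim11 on chromosome 11, stood at 0.03 and 0.00752.

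Among genes without a RING finger 2 of 3 kept were up, and the median log2 ratio was 1.29. All 3 had a mean RPKM of 1 to 5, where 50.2% of all genes were up. Trim14 (chr4:46493781-46536141, minus strand), an adaptor of the mitochondrial antiviral protein MAVS, stood at 1.29 in PBS and 4.77 in ELV. Its ratio of 3.70 (3.02 to 4.52) was the largest of the 33, and 89.7% of all genes kept had a lower one. Of all its 4338 annotated exon bases, 31.3% overlap Nans on the opposite strand, and Nans itself stood at 2.83 and 6.88. The transcript that gave its length here has only 1429 bases. Of its windows of 50 bases, 8.48% also occur in other genes on either strand, all of them in Gm16731. Reads on the bases shared with Nans cannot be told apart where strand was not used. Whether the deposited value of Trim14 counted those bases is not stated. Trim44 (chr2:102300119-102407828, minus strand), which carries a zinc finger of the kind found in deubiquitinases, stood at 0.90 and 2.20, a ratio of 2.44 (2.16 to 2.78). Trim16 stood at 1.54 and 2.66, a ratio of 1.73. Trim29 stood at 0.00536 and 0.05 and was not kept.

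The COS class, whose proteins bind microtubules, had 1 gene kept of 5. Trim9 (chr12:70244533-70347614, minus strand), best known from neurons, stood at 0.28 in PBS and 0.78 in ELV, a ratio of 2.79 (2.30 to 3.41). About 137 reads in PBS and 459 in ELV lay behind it. Both values are low beside those of Trim30a. The 3 muscle RING finger genes, Trim54, Trim55 and Trim63, were not kept. Trim54 stood at 0.00989 in PBS and was listed at 0 in ELV, and the other two were listed at 0 in both.

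The PHD and bromodomain class holds nuclear regulators of transcription. Trim28, the corepressor bound by KRAB zinc finger proteins, stood at 11.32 in PBS and 17.93 in ELV, a ratio of 1.58. Trim33, which acts on Smad4, stood at 10.09 and 8.56, a ratio of 0.848. Trim24, a nuclear receptor cofactor, stood at 1.29 and 1.67. None of the 3 passed a 2-fold limit. Trim66 stood at 0.00628 and 0.00655.

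The remaining genes kept also stayed within 2-fold. Trim56, linked to sensing of cytosolic DNA through STING, stood at 11.07 and 17.53, a ratio of 1.58. Trim8, a regulator of NF-κB and cytokine signalling, stood at 20.69 and 19.13, a ratio of 0.925. Neither has a classed C-terminal domain. Of the NHL class, Trim3 was kept at 4.01 and 4.47. The membrane-anchored Trim13, a ligase of the endoplasmic reticulum, stood at 2.02 and 3.00. Trim59, also membrane-anchored, stood at 1.58 and 1.78. Trim23, which ends in an ARF-type GTPase domain, stood at 1.26 and 2.35, near the upper limit at a ratio of 1.87 (1.67 to 2.08).

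The 34 genes not kept were low in at least 1 library. Trim37 and Trim45 reached 0.25 only in ELV. Trim37, a ligase with a MATH domain, stood at 0.21 in PBS and 0.66 in ELV, with about 78 and 294 estimated reads, and lay just under the limit in PBS. Trim45 stood at 0.13 and 0.25. The filter on both libraries left these 2 out, and the other 32 stood at no more than 0.13 in PBS and 0.12 in ELV. Of the 34, 19 were above 0 in both libraries, 4 were listed at 0 in 1 library and 11 were listed at 0 in both. The 11 were Trim31, Trim32, Trim40, Trim42, Trim50, Trim52, Trim55, Trim60, Trim61, Trim63 and Trim67. At their lengths, 3 reads allow an RPKM of up to 0.00521 to 0.0252 in PBS and 0.00434 to 0.0210 in ELV. None of 20 housekeeping genes was listed at 0.

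A few genes of the TRIM family carry other symbols and were read beside the 67. Mefv, which encodes pyrin, the sensor of an inflammasome, stood at 11.34 in PBS and 62.65 in ELV. Its ratio of 5.52 (5.29 to 5.77) was above that of any Trim gene kept. Pml, the organizer of nuclear bodies, stood at 1.54 and 3.03, a ratio of 1.97 (1.76 to 2.20). Mid2 was listed at 0 in PBS and at 0.00641 in ELV.

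The genes that TRIM ligases work with were counted from lists. These lists and the interferon list were set beside all genes kept. They were not compared with genes of the same level, on which the share up depends. Of 15 ubiquitin E1 and E2 genes kept, 6 were up (40%) and 0 down, beside 31.5% up and 5.62% down of all genes kept, with a median log2 ratio of 0.91. The 6 were Uba7, Ube2d1, Ube2e1, Ube2e3, Ube2l6 and Ube2v2. Uba7 and Ube2l6, the E1 and E2 of the ubiquitin-like protein ISG15, stood at 14.39 and 1.75 in PBS and at 30.58 and 6.8 in ELV. Ube2n, the E2 that builds K63-linked chains, stood at 4.79 and 9.01. Of its cofactors, Ube2v1 stood at 17.23 in PBS and 33.53 in ELV, within 2-fold, and Ube2v2 at 0.33 and 1.86.

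Of 20 antiviral partners kept, 7 were up (35%) and 1 was down, shares near the 31.5% and 5.62% of all genes kept, with a median log2 ratio of 0.63. Up were Ddx58, Ifih1, Ikbke, Map3k7, Mavs, Mb21d1 and Rnf135. Ddx58 encodes RIG-I, the target of Trim25, and stood at 12.27 and 24.56. Ifih1 encodes MDA5, the target of Trim65, and stood at 1.89 and 12.69. Mavs, the partner of Trim14, stood at 0.61 and 1.38. Ikbke, a kinase that acts on IRF3, stood at 19.58 and 197.93. Ikbkg, the NF-κB regulator NEMO, stood at 47.37 in PBS and 16.69 in ELV, a ratio of 0.352, and was the one down. Tab2 and Tab3, the partners on which Trim30a acts, stood at 68.88 and 4.65 in PBS and at 66.78 and 6.2 in ELV.

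Of 19 genes of interferon signalling and response kept, 11 were up (57.9%) and 0 down, beside 31.5% and 5.62% of all genes kept, with a median log2 ratio of 1.25. They were Ifit1, Ifit2, Ifit3, Irf7, Irf9, Isg15, Oas1a, Oasl2, Rsad2, Tyk2 and Usp18. The TRIM median of 0.37 lay below the medians of all 3 lists, and those lay above the 0.53 of all genes kept. After median centring, which left 16.8% of all genes up and 13.2% down, 2 E1 and E2 genes stayed up, and 3 antiviral partners were up and 2 down. Of the interferon list, 8 were then up and 1 down. Mx1 was listed at 0 in both libraries.

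**Figure D5:**
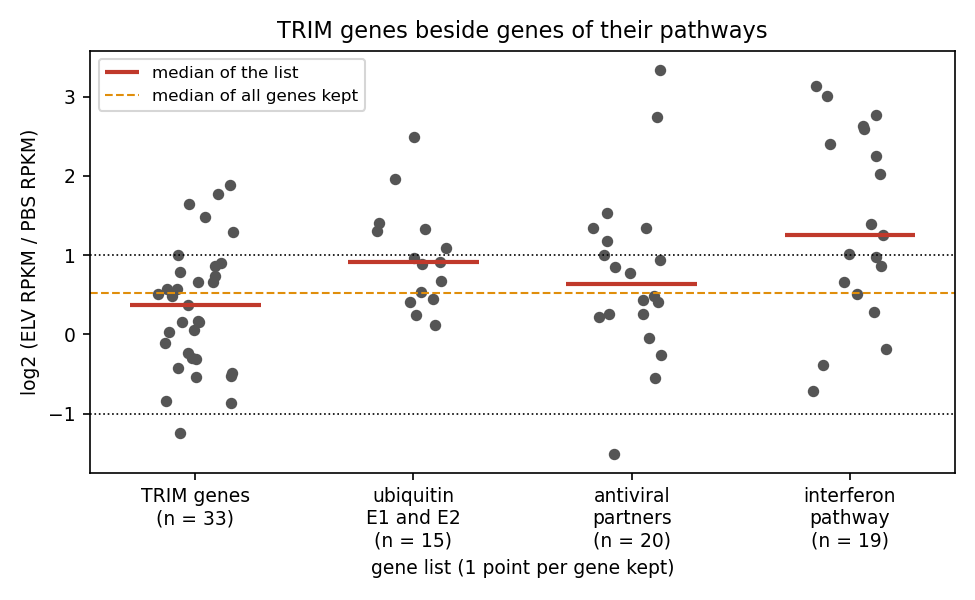
Log2 ratio of ELV to PBS RPKM (y axis, 1 point per gene kept) for the 33 TRIM genes, 15 ubiquitin E1 and E2 genes, 20 antiviral partners and 19 interferon pathway genes, with list medians in red, the median of all genes kept dashed and 2-fold limits dotted. The list medians are 0.37, 0.91, 0.63 and 1.25, and the TRIM median is the one below the dashed line at 0.53.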

How the data were processed

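mRNA libraries (TruSeq) of 2 neutrophil cultures were sequenced on a HiSeq 2500, and the authors trimmed reads at a Phred score of 20, used CLC Genomics Workbench 8.0 for mapping, and deposited 1 RPKM value per feature and library. The submitters' processing notes name mm10. The annotation, the use of strand and the handling of reads that match several genes are not given in the sources used here. Both files hold RPKM only, without fold changes or p-values, rounded to 0.01 above that value.

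Genes with RPKM of at least 0.25 in both libraries were kept, and ratios (ELV over PBS) used no pseudocount or rescaling. Because each group holds 1 library, no model was fitted. Depth was estimated from values below 0.01, many of which are whole reads: of such features with a known length, 302 of 918 in PBS and 351 of 1064 in ELV lay within about 0.75% of 1 read. Between the libraries, the commonest ratio of such values was 1.2 (within 0.005), in 217 of 415 features. Estimated reads gave exact Clopper-Pearson 95% intervals, which cover counting error only. Lengths and positions came from GENCODE M21 (GRCm38), and all 67 symbols matched. Promoter windows came from RefSeq (GRCm38.p6).

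Named singly were TRIM genes at least 2-fold changed, the 3 highest per library, the chromosome 7 cluster, those within 10% of a 2-fold limit and those at 0.25 in 1 library. Both RPKM values are given for each gene kept. The members, lists and limits were chosen with earlier results of these data known. Alternatives were other scalings, filters, pseudocounts and fold limits. Python 3.11.15, pandas 2.3.3, numpy 2.4.6 and scipy 1.17.1 were used, and the scripts were tested on simulated data.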

Additional observations from a re-analysis of the deposited data

How the results depend on the processing

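Each treatment had 1 library, so culture, animal and library effects cannot be told apart from treatment, and no library could be left out. No paired analysis was possible because each group holds 1 library. The 6 genes up, 1 down and the median log2 ratio of 0.37 became 3, 6 and -0.15 with centring on the median of all genes kept, 3, 6 and -0.17 with removal of a trimmed mean, and 2, 5 and -0.26 with centring within ranges of level. Removal of the trimmed mean left 16.5% of all genes up and 13.6% down. An RPKM of at least 1 left 3 up and 1 down (25.6% and 5.34% of all genes). Without a filter on low values 52 genes entered, 11 up and 2 down (32.3% and 10.3% of all genes), with a median of 0.15. A pseudocount of 1 left 3 up and 1 down (20.4% and 4.12% of all genes) and a median of 0.22. A ratio limit of 1.5 gave 12 up and 3 down (47.3% and 11.3% of all genes), and a limit of 4 gave 0 and 0 (8.52% and 1.14% of all genes). Rescaling to TPM, a pseudocount of 0.25, and that pseudocount together with a filter on either library moved the counts and the median less. Trim30a and Trim30b kept their calls in all 6 settings of scaling and pseudocount, Trim14 and Trim21 in 5 each, Trim9 and Trim44 in 2 each and Trim65 in 1. Of the 198 ratios of single genes under these settings, 82 stayed within the counting interval and 116 lay outside it, and none of the 7 genes called 2-fold changed direction. The ratio of Trim65 is limited by its depth, with 54 estimated reads in PBS and 130 in ELV.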
